A study of Mus musculus with 16 samples.

Results

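The comparison described here asks what a ketogenic diet changes in the hippocampus of mice whose Kcna1 gene is intact. It holds 8 of the 16 RNA sequencing libraries of the study, chosen by their labels alone: 4 from wild type mice fed a ketogenic diet and 4 from wild type mice fed a standard diet. The other 8 libraries come from Kcna1 knockout mice, 4 on each diet, and enter below where a wild type value is set beside the knockout value or where the spread between animals is estimated. The product of Kcna1 is a potassium channel subunit that damps the excitability of axons, and its loss causes seizures. Each library is 1 animal, named here by its tag. The tags of the standard diet group are KC890RL, KC894RLL, KC897RR and KC900RLL, and those of the ketogenic diet group are KC842L, KC843RL, KC844RR and KC846L, and values per library are given in this order. The sources used here state neither the strain, age and sex of the mice nor the composition and length of the diets.

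A ketogenic diet is rich in fat and poor in carbohydrate. The liver turns fatty acids into ketone bodies, which enter the brain through monocarboxylate transporters and are oxidised in mitochondria by the enzymes Bdh1, Oxct1 and Acat1, and such diets are used against epilepsy. Immediate early genes are transcribed within minutes of neuronal firing and need no new protein for it, so their RNA reports recent activity. Oligodendrocytes wrap axons in myelin, a membrane rich in cholesterol, and arise from precursor cells that pass through a Gpr17-positive stage.

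Total counts were 14481657 to 15844164 in the standard diet libraries and 16913113 to 22309504 in the ketogenic diet libraries, so the ranges did not overlap. The tag numbers did not overlap either, 890 to 900 against 842 to 846, and whether the tags mark litters, cages or dates is not stated. Diet, depth and whatever the tags record cannot be told apart in this design. Kcna1 measured 120 ± 6.29 and 117 ± 9.65 CPM (a count scaled to the library's size; mean ± SD, n = 4) on the standard and the ketogenic diet. In the knockout it ranged from 43.4 to 47.2 CPM, apart from KC888LL, a standard diet library that is labelled knockout and held 82.0 CPM. Y-linked RNA was expressed in 1 wild type library of each diet, KC890RL and KC846L. In KC890RL, Xist, the RNA of the inactive X chromosome, measured 41.1 CPM, against 8.84 CPM in KC846L and 730 to 844 CPM in the 6 wild type libraries without Y-linked expression above 2 CPM. The choroid plexus marker Ttr stood at 971, 250 and 957 CPM in KC894RLL, KC897RR and KC844RR and at 10.3 to 25.2 CPM in the other 5. Markers of the hippocampal fields were present in every wild type library: summed levels were 243 to 530 CPM over 5 dentate granule cell genes, 388 to 598 CPM over 5 CA1 genes and 512 to 659 CPM over 5 CA3 genes. Pairs of libraries of 1 diet differed by more than counting noise, with a chi-square of 3.93 or more per gene.

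Most genes had similar levels on both diets. The log2 fold change, ketogenic over standard, was within 0.5 of 0 for 94.3% of the 17469 genes tested, with a median of -0.00 and a median standard error (SE) of 0.12. A quasi-likelihood test (edgeR, all 16 libraries in 1 fit, Benjamini-Hochberg adjustment over all tested genes) called 2 genes at an adjusted p under 0.05, which is 0.0114% of them. Btg2 rose and Adamts4 fell, each 0.00572% of the tested genes. At an unadjusted p under 0.05 there were 953 genes, or 5.46%, of which 427 were higher and 526 lower on the ketogenic diet. Without KC846L there were 619 such genes of 17739, and without any other single wild type library 810 to 988. The CPM of the 2 diets did not overlap for 429 genes in the higher direction, or 2.46%, and for 423 in the lower direction, or 2.42%. In the plot of fold change against mean level, the cloud is narrow for abundant genes and widens toward low levels.

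**Figure D1:**
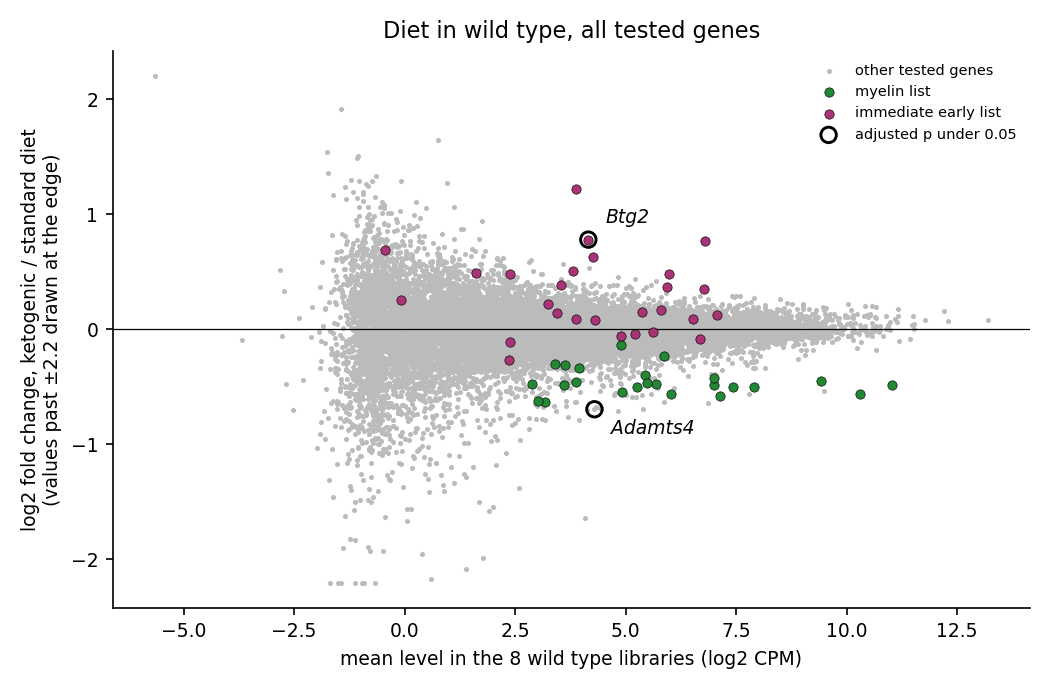
Log2 fold change with the diet in wild type (vertical axis) against the mean level over the 8 wild type libraries in log2 CPM (horizontal axis), 1 point per tested gene, values beyond 2.2 drawn at the edge. Circles mark Btg2 and Adamts4, the 2 genes with an adjusted p under 0.05; green points are the myelin list, which lies below 0 throughout, and purple points the immediate early list.

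Btg2 (ENSMUSG00000020423, chr1:134075170-134079120, minus strand, GRCm38) encodes an antiproliferative protein that promotes the removal of messenger RNA poly(A) tails, and it is itself an immediate early gene of neurons. It measured 12.6, 12.1, 13.2 and 14.6 CPM on the standard diet and 21.8, 23.0, 26.9 and 18.5 CPM on the ketogenic diet. Every ketogenic library stood above every standard diet library, with the highest value in KC844RR and the lowest of the ketogenic values in KC846L. The change was 1.72-fold, a log2 fold change of 0.78 ± 0.12 (SE, 95% interval 0.53 to 1.03, adjusted p = 0.0415, edgeR). In the fits that left out 1 wild type library the log2 fold change stayed between 0.69 and 0.87. The adjusted p passed the threshold in 2 of these 8 fits, those without KC900RLL or KC846L, and reached 0.321. The call was also lost without the knockout library KC872RL, KC873RR or KC916RRL (adjusted p = 0.0573, 0.0743 and 0.0573, edgeR), with the log2 fold change at 0.78. Fitted on the wild type libraries alone, Btg2 was called in 6 of 8 fits without 1 library. In the fit of both genotypes without KC890RL and KC846L the log2 fold change was 0.85 (adjusted p = 0.0799, edgeR), and without KC894RLL and KC844RR 0.65 (adjusted p = 0.617, edgeR). In the knockout Btg2 stood at 0.20 ± 0.12 (adjusted p = 0.429, edgeR). The test of the difference between the genotypes gave an unadjusted p of 0.00263 and an adjusted p of 0.654.

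Btg2 belongs to a family of 6 Btg and Tob genes, of which 5 were tested, and all 5 had a fold change above 0, with a median of 0.29 against -0.00 over all tested genes. Tob2 (log2 fold change 0.30 ± 0.10) and Tob1 (0.29 ± 0.10), which slow the cell cycle and act on poly(A) tails like Btg2, were not called (adjusted p = 0.761 and 0.781, edgeR), nor were Btg3 (0.23 ± 0.15) and Btg1 (0.15 ± 0.08). In the knockout Tob1 and Tob2 stood at -0.21 and -0.06. With 1 knockout library left out, Tob1 ran from -0.28 without KC934R to -0.11 without KC913RR. Tob2 ran from -0.14 without KC935LL to -0.0095 without KC934R. For both the test of the difference between the genotypes gave an unadjusted p under 0.05 (0.00221 and 0.0169), with an adjusted p of 0.654.

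The promoter of Btg2 is shown because it holds the full cyclic AMP response element, the site bound by CREB, a factor that neuronal activity switches on. The sequence is the 250 bases before the RefSeq start of the gene (GRCm38.p6, chr1:134079156-134079405, minus strand), 5′ to 3′, with TGACGTCA in capitals. That motif, searched on both strands, occurred in 1.55% of 32851 promoters of the same length. Among the 27 promoters of the 20 immediate early genes that matched the RefSeq table it occurred in 11.1%. These belong to Btg2, Dusp1 and Maff, the last with the motif in only 1 of its promoters. The shorter TGACG, also searched on both strands and found at 2 overlapping places within each full element, occurred in 17.8% of all promoters and in 74.1% of the 27 promoters of those 20 genes, Npas4 among them. A match describes the letters and does not show binding.
Btg2: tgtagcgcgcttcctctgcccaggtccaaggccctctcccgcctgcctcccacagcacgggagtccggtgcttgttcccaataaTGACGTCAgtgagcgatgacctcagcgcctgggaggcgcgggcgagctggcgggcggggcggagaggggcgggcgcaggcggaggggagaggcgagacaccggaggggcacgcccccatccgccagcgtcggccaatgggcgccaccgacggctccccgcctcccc

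Adamts4 (ENSMUSG00000006403, chr1:171250421-171260637, plus strand, GRCm38) encodes a secreted protease that cleaves aggrecan and brevican in the extracellular matrix and that is made in brain mainly by oligodendrocytes. It measured 27.7, 22.8, 24.7 and 21.8 CPM on the standard diet and 12.6, 16.8, 15.97 and 14.6 CPM on the ketogenic diet. The lowest standard diet value, in KC900RLL, was above the highest ketogenic value, in KC843RL. The fall was 1.62-fold, a log2 fold change of -0.69 ± 0.11 (SE, 95% interval -0.92 to -0.46, adjusted p = 0.0415, edgeR). In fits without 1 wild type library it ranged from -0.75 to -0.62 and passed the threshold in 1 of 8, the fit without KC900RLL. Without KC890RL and KC846L together it was -0.61 (adjusted p = 0.874, edgeR), and without KC894RLL and KC844RR -0.75 (adjusted p = 0.512, edgeR). Adamts4 also fell with the diet in the knockout, by 0.97 on the log2 scale (adjusted p = 0.00103, edgeR), from 20.2 to 26.8 CPM down to 10.6 to 12.9 CPM. These libraries do not enter the wild type fold change, but they share in the estimate of spread behind its p. Without KC872RL, KC873RR, KC916RRL or KC934R the wild type call was lost (adjusted p = 0.0573, 0.0743, 0.0829 and 0.0754, edgeR), with the log2 fold change at -0.70 to -0.69. Fitted on the wild type libraries alone, Adamts4 was called in 6 of 8 fits without 1 library. Without KC888LL the knockout value was -0.87. The use of strand in counting is not stated, so reads from the opposite strand may not be fully separated from those of Adamts4. The other 15 tested genes of the Adamts and perineuronal net list held 0 called genes: their substrates Acan and Bcan measured 0.24 ± 0.18 and 0.09 ± 0.11, Adamts1 0.14 ± 0.30 and Adamts5 -0.28 ± 0.30, and the list of 16 had a median of -0.04. Acan ran from 0.06 to 0.34 with 1 wild type library left out.

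The fit above shares 1 estimate of spread between the genotypes, so the 8 wild type libraries were also fitted alone, with 6 residual degrees of freedom. This fit called 11 of 16632 genes, or 0.0661%. Arc, Npas4, Btg2 and Tnxb were higher on the ketogenic diet, which is 4 genes or 0.0241%. Gpr17, Fabp7, Adamts4, Hmgcs1, Gng4, Ano2 and Adra2a were lower, which is 7 genes or 0.0421%. At an unadjusted p under 0.05 there were 1401 genes, or 8.42%. For Arc, Npas4 and Gpr17, the 3 genes of smallest p in this fit, the fit over all 16 libraries gave nearly the same fold change with a wider error.

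Arc (ENSMUSG00000022602, chr15:74669083-74672570, minus strand), whose protein controls the removal of AMPA receptors from synapses, measured 79.6, 73.2, 89.6 and 84.6 CPM on the standard diet and 134, 126, 150 and 147 CPM on the ketogenic diet. The highest standard diet library lay well below the lowest ketogenic one. The log2 fold change was 0.77 ± 0.07 (SE) in the wild type fit (adjusted p = 0.000158, edgeR) and 0.77 ± 0.39 in the fit of all libraries (adjusted p = 0.939, edgeR). In the knockout libraries Arc ranged from 16.05 to 68.5 CPM on the standard and from 27.2 to 76.0 CPM on the ketogenic diet. The SD of its log2 CPM within a group was 0.12 in wild type and 0.81 in the knockout, pooled over the diets.

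Npas4 (ENSMUSG00000045903, chr19:4984355-4990316, minus strand), an activity-dependent transcription factor that shapes inhibitory synapses, measured 8.61, 7.002, 9.25 and 10.4 CPM on the standard diet. Under the ketogenic one it measured 20.9, 19.9, 23.2 and 18.1 CPM, so that the groups were separated by a wide gap. The log2 fold change was 1.21 ± 0.12 (SE) in the wild type fit (adjusted p = 0.000158, edgeR) and 1.22 ± 0.36 in the fit of all libraries (adjusted p = 0.761, edgeR). When each wild type library was dropped in turn from the wild type fit, Arc and Npas4 were called in 8 of 8 fits (edgeR, highest adjusted p 0.00389), and they were also called without both libraries with Y-linked expression. In the knockout, the diet values were 0.65 ± 0.41 for Arc and 0.17 ± 0.40 for Npas4, and the tests of the difference between the genotypes gave an unadjusted p of 0.838 and 0.0716. With 1 knockout library left out, the knockout value of Arc ran from 0.41 without KC872RL to 1.25 without KC888LL, where Arc was called (adjusted p = 0.0440, edgeR). Without the 4 libraries of the study with Y-linked expression it was 0.26. That of Npas4 ran from -0.097 without KC893RL to 0.78 without KC888LL, and the unadjusted p of its difference between the genotypes from 0.00999 to 0.278, with adjusted values of 0.607 and 0.711 (edgeR).

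Adra2a, Tnxb, Gng4 and Ano2 were called close to the threshold in the wild type fit. Adra2a, an inhibitory adrenergic receptor, measured 17.8 to 19.4 CPM on the standard diet and 10.6 to 13.6 CPM on the ketogenic diet (log2 fold change -0.55, adjusted p = 0.0490, edgeR). Tnxb, a tenascin of the extracellular matrix, measured 21.95 to 27.6 and 31.5 to 36.0 CPM (0.45, adjusted p = 0.0499, edgeR). Gng4, a G protein gamma subunit, and Ano2, a calcium-activated chloride channel, were at -0.44 and -1.08 (adjusted p = 0.0444 for both, edgeR). These 4 genes were called in 1 or 2 of the 8 wild type fits without 1 library.

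**Figure D2:**
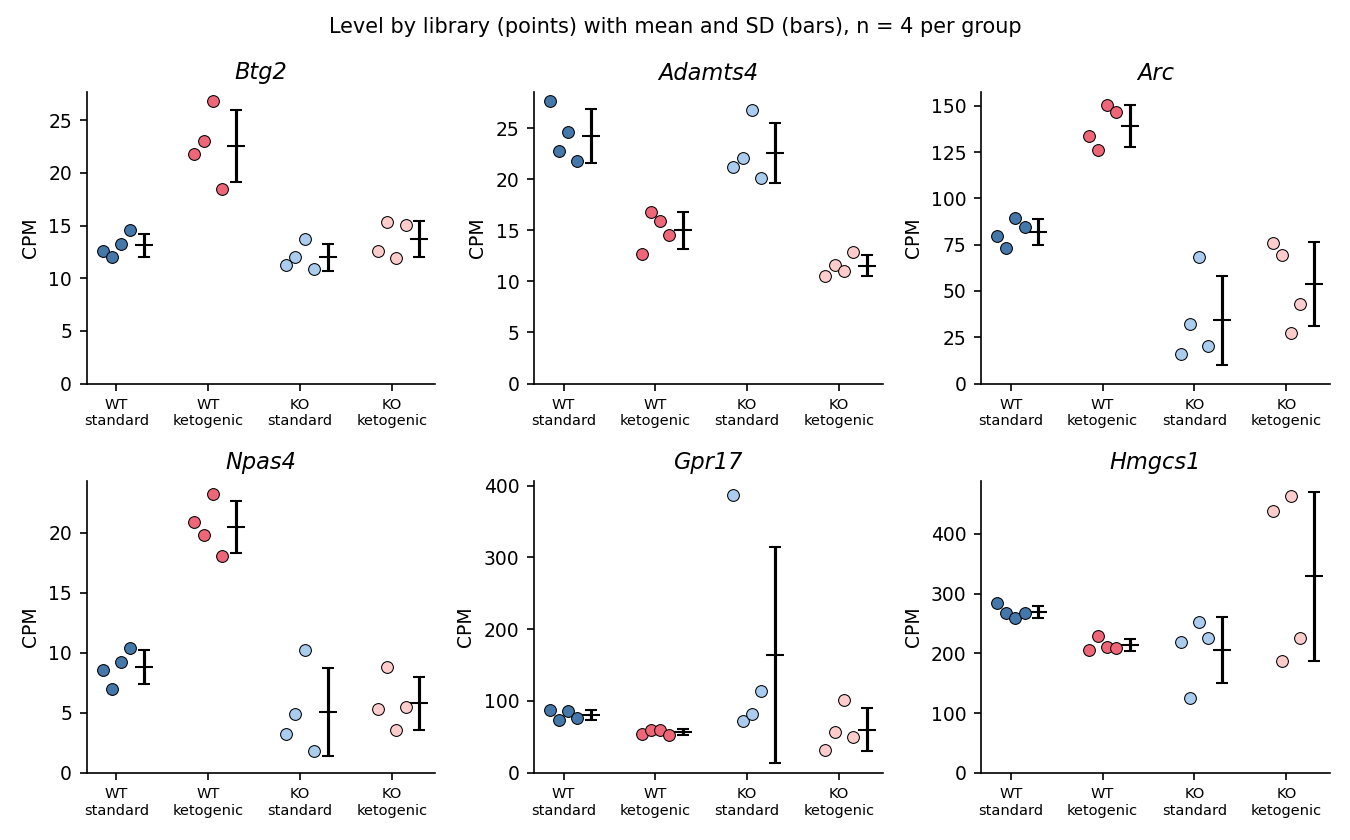
Level in CPM (vertical axes, from 0) of 6 genes in each of the 16 libraries, grouped by genotype (WT, wild type; KO, Kcna1 knockout) and diet; points are libraries and bars the mean and SD, n = 4. In wild type the 2 diets are separated for all 6 genes, and the knockout groups spread more widely for Arc, Npas4, Gpr17 and Hmgcs1.

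The list of 27 rapid immediate early genes had 21 genes above 0 and 6 below, with a median of 0.22 against -0.00 over all tested genes. Btg2 was called, 3 genes had an unadjusted p under 0.05, all higher (2.44% of all tested genes were), and 7 did not overlap between the diets in the higher direction (2.46% of all): Btg2, Npas4, Arc, Junb, Ier2, Trib1 and Atf3. In the wild type fit 3 were called and 11 had an unadjusted p under 0.05, all higher, where 4.02% of all genes did. DESeq2 on the wild type libraries called 6 of the 27, where it called 0.472% of all genes: Arc, Btg2, Npas4, Dusp1, Junb and Nr4a1. The wild type fit without KC900RLL called 5, Junb and Egr1 among them, and 0.349% of all genes. The AP-1 subunit Junb measured 49.2, 47.1, 56.5 and 61.7 CPM on the standard diet and 70.9, 62.7, 73.7 and 68.8 CPM on the ketogenic diet (log2 fold change 0.36 ± 0.18, adjusted p = 0.932, edgeR). Its groups were separated by a narrow margin, KC900RLL against KC843RL. Dusp1, a phosphatase that switches off MAP kinases, overlapped between the diets only through KC846L, which stood at 15.8 CPM among ketogenic values of 23.0 to 28.5 and standard diet values of 11.8 to 18.2 (0.63 ± 0.19, adjusted p = 0.761, edgeR). Prdx2 lies opposite Junb, and Dusp1 overlaps Ergic1, so part of their reads may belong to those neighbours.

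Not every immediate early gene shared that pattern. Fos, the usual marker of activity, measured 12.1, 8.01, 11.8 and 14.4 CPM on the standard diet and 14.7, 20.8, 18.9 and 11.7 CPM on the ketogenic diet, with overlapping groups (0.51 ± 0.64). Egr1, a zinc finger factor, was at 0.35 ± 0.38 and also overlapped. Nr4a2, Nr4a3, Ier5, Klf10, Klf2 and Klf4 lay between -0.26 and -0.02. The 15 later activity-induced genes, effectors such as Pcsk1 and Nptx1, had 6 genes above 0 and a median of -0.06, with no gene at an unadjusted p under 0.05 with all libraries and 1, lower, in the wild type fit. Pcsk1, a prohormone convertase, was at -0.47 ± 0.45 (-0.25 without KC846L) and Nptx1, a secreted synaptic pentraxin, at 0.07 ± 0.08. Within groups, wild type libraries differed less in these genes than knockout libraries: the median SD of log2 CPM within a group was 0.19 over the 27 genes in wild type and 0.63 in the knockout, and 23 of 27, or 85.2%, spread more in the knockout, against 66.3% of all tested genes.

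Genes of myelin and mature oligodendrocytes had lower values on the ketogenic diet in every case: 24 of 24 had a log2 fold change below 0, from -0.63 to -0.14, with a median of -0.48. None was called by edgeR in either fit. DESeq2 called Gjb1 with all libraries, where it called 0.0701% of all genes. On the wild type libraries alone it called 8 of the 24, all lower and Cnp, Gjb1, Mag, Mbp and Nkx6-2 among them, and 77 of 16308 genes in all (0.472%). In edgeR 19 had an unadjusted p under 0.05 in the lower direction, where 3.01% of all tested genes did. In the wild type fit 21 did, against 4.4% of all. Only 4, Gjb1, Nkx6-2 and Cnp among them, did not overlap between the diets, against 2.42% of all. Mbp, which compacts the myelin sheath, measured 2766, 2561, 2526 and 1838 CPM on the standard diet and 1716, 1881, 1770 and 1556 CPM on the ketogenic diet (-0.49 ± 0.16, adjusted p = 0.774, edgeR). In such bulk tissue, fewer oligodendrocytes and less myelin RNA per cell cannot be told apart. The overlap came from KC900RLL, the lowest standard diet library, which was below KC843RL.

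Gjb1, a connexin of oligodendrocyte gap junctions, measured 11.9, 12.3, 10.99 and 9.02 CPM against 6.40, 7.39, 8.60 and 6.15 CPM (-0.63 ± 0.14, adjusted p = 0.424, edgeR). Nkx6-2, a homeobox factor of maturing oligodendrocytes, measured 8.98, 11.9, 10.3 and 7.91 CPM against 6.40, 5.88, 7.31 and 5.78 CPM (-0.62 ± 0.15, adjusted p = 0.508, edgeR). For both genes KC900RLL was again the lowest standard diet library. The mean log2 CPM of the list, relative to the 8 libraries, was 0.43, 0.37 and 0.24 in KC890RL, KC894RLL and KC897RR and -0.17 in KC900RLL. In the ketogenic libraries it was -0.21, -0.07, -0.14 and -0.46, the last in KC846L, so KC900RLL sat inside the ketogenic range.

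Leaving out KC900RLL moved the median of the myelin list to -0.60, and in the wild type fit it raised the number of called genes of the whole table from 11 to 59, or 0.349%, of which 48 were lower. Of the myelin list 15 of 24 were then called, Mbp, Gjb1 and Nkx6-2 among them. Leaving out KC890RL moved the median to -0.40. Without the 4 libraries of the study with Y-linked expression it was -0.33, with 23 of 24 genes below 0. The summed level of 7 thalamic genes was 133 to 160 CPM on the standard and 116 to 140 CPM on the ketogenic diet (median of the list -0.12), and that of 5 ependymal genes 13.98 to 33.3 and 14.4 to 20.9 CPM (median -0.31, 5 of 5 below 0), with 0 of these genes at 0 in any wild type library. On the mean log2 CPM of the list, the measure given for myelin above, the thalamic genes did not overlap between the diets, at 3.65 to 3.74 on the standard and 3.46 to 3.60 on the ketogenic diet. With 1 library left out the thalamic median ran from -0.22 without KC842L to -0.047 without KC900RLL, and the ependymal one from -0.69 without KC900RLL to -0.047 without KC894RLL. The summed level of 6 meningeal fibroblast genes was 62.3 to 133 and 44.1 to 116 CPM (median of the list -0.30, 5 of 6 below 0), with 0 of them at 0 in any wild type library, and that of 6 mural cell genes 148 to 166 and 133 to 158 CPM (median -0.15, 4 of 6 below 0). Leaving out 1 library moved these medians between -0.48 (without KC900RLL) and -0.12 (without KC846L), and between -0.20 (without KC844RR) and -0.0093 (without KC890RL). The part of dissection and of neighbouring tissue in the myelin values was not tested.

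**Figure D3:**
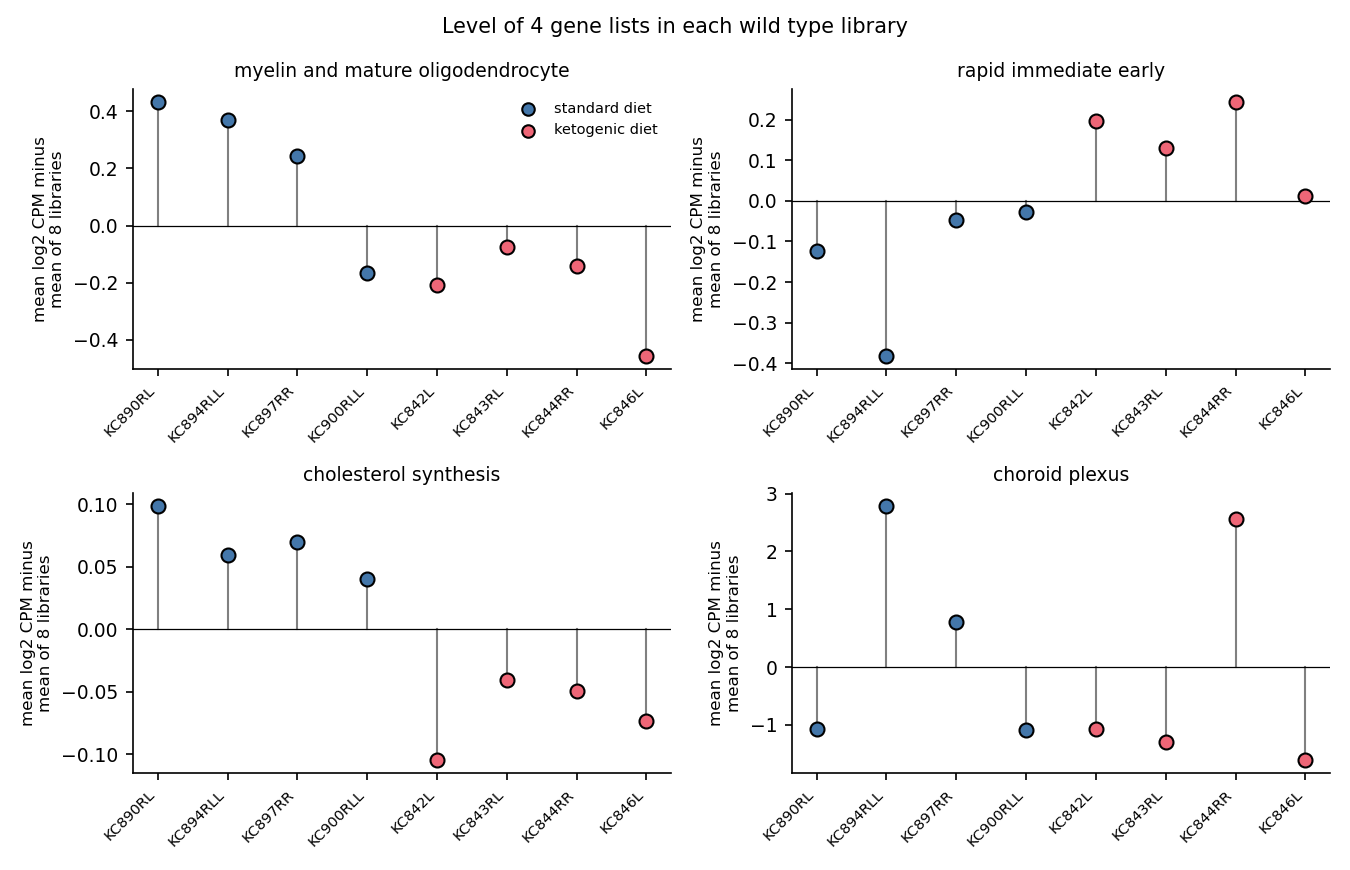
Mean log2 CPM of 4 gene lists in each wild type library, relative to the mean of the 8 libraries (vertical axes), with libraries along the horizontal axis, blue for standard and red for ketogenic diet. The myelin panel shows KC900RLL at -0.17 beside the ketogenic libraries, the immediate early and cholesterol panels show no overlap between the diets, and the choroid plexus panel is led by KC894RLL and KC844RR, 1 of each diet.

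The 15 oligodendrocyte precursor genes were all below 0, with a median of -0.20 and 2 at an unadjusted p under 0.05 (3.01% of all tested genes were lower at that p), Sox10 (-0.32 ± 0.10) and Olig2 (-0.29 ± 0.11), both lineage transcription factors. In the wild type fit 6 of 15 were lower at that p, against 4.4% of all, and 1, Gpr17, was called. Pdgfra and Cspg4, which mark the precursor cells themselves, were at -0.08 ± 0.14 and -0.03 ± 0.10. Gpr17 (ENSMUSG00000052229), the receptor of committed precursors, measured 87.1, 73.7, 85.5 and 75.8 CPM on the standard diet and 53.8, 60.1, 59.7 and 52.9 CPM on the ketogenic diet, with no overlap. It fell in the wild type fit (-0.51 ± 0.07, adjusted p = 0.00580, edgeR) and was not called with all libraries (-0.51 ± 0.49, adjusted p = 0.997, edgeR). The call was lost without KC890RL. One knockout library on the standard diet, KC872RL, held 387 CPM of it. Gpr17 lies across from Lims2 on the other strand. Enpp6, an enzyme of newly forming oligodendrocytes, was at -0.68 ± 0.33 in wild type and fell in the knockout by 2.04 on the log2 scale (adjusted p = 0.0150, edgeR). That call was lost without KC913RR (-1.95, adjusted p = 0.0544, edgeR). The difference between the genotypes had an unadjusted p of 0.0110 and an adjusted p of 0.654.

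Of 23 genes of cholesterol synthesis and its control, 22 were below 0 in wild type, by small amounts: the median was -0.12 and the range -0.34 to 0.04. None was called with all libraries or had an unadjusted p under 0.05 there. In the wild type fit 9 had one, all lower (4.4% of all did). With all libraries 7 did not overlap between the diets in the lower direction (2.42% of all), Hmgcs1, Sqle, Cyp51, Msmo1 and Dhcr7 among them. Hmgcs1 (ENSMUSG00000093930), the enzyme that makes HMG-CoA in the cytosol, measured 284, 268, 260 and 267 CPM on the standard diet and 206, 229, 210 and 209 CPM on the ketogenic diet. The gap between the groups was wider than the spread within them. It was called lower in the wild type fit (-0.34 ± 0.05, adjusted p = 0.0128, edgeR). With all libraries it was not called, at the same fold change with a wider error (-0.34 ± 0.27, adjusted p = 0.986, edgeR). In 4 of the 8 wild type fits without 1 library it was called (those without KC897RR, KC900RLL, KC843RL or KC846L). Gm48342 overlaps Hmgcs1 on the opposite strand.

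The promoter of Hmgcs1 is shown because it carries TCACNCCAC, a form of the sterol regulatory element that SREBP factors bind. These are the 250 bases before its RefSeq start (GRCm38.p6, chr13:119690101-119690350, plus strand), 5′ to 3′, with the motif in capitals. Searched on both strands, it occurred in 1.05% of all promoters. Among the 19 promoters of the 16 cholesterol genes that matched the RefSeq table it occurred in 1, or 5.26%. As above, the match is a description only.
Hmgcs1: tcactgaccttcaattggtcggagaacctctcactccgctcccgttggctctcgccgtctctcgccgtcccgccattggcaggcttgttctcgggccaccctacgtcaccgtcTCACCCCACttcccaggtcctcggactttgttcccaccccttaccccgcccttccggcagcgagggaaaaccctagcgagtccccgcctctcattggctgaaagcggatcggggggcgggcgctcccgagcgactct

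No gene of the fatty acid and ketone list passed the test in either fit. Of its 22 genes, 6 were above and 16 below 0, with a median of -0.07, 0 called and 1 lower at an unadjusted p under 0.05 (3.01% of all were). In the wild type fit 3 of 22 were lower at that p (4.4% of all), and 3 did not overlap between the diets in the lower direction (2.42% of all). The gene at an unadjusted p under 0.05 with all libraries was Slc16a7, the neuronal monocarboxylate transporter MCT2, at 58.1, 55.4, 53.8 and 62.9 CPM on the standard diet and 48.9, 52.9, 44.2 and 47.3 CPM on the ketogenic diet (-0.25 ± 0.07, adjusted p = 0.761, edgeR). The groups were separated by less than 1 CPM. Slc16a1, the transporter MCT1 of vessels and glia, was at -0.01 ± 0.09, with a 95% interval from -0.21 to 0.18.

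Oxct1, the rate-limiting enzyme of ketone use, measured 299, 303, 303 and 315 CPM on the standard diet and 278, 282, 269 and 297 CPM on the ketogenic diet (-0.11 ± 0.06, 95% interval -0.24 to 0.01, adjusted p = 0.940, edgeR). Its ketogenic values were the lower ones without overlap, as were those of Acat1 (-0.07 ± 0.05). Bdh1 was at -0.10 ± 0.06 and Cpt1a, the gate of fatty acid entry into mitochondria, at -0.15 ± 0.10. The 95% intervals of Oxct1, Acat1, Bdh1, Cpt1a and Slc16a1 included 0, and excluded a rise of 0.2 on the log2 scale.

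Among 17 genes of the PPAR and PGC-1 axis, which responds to fatty acids, the median was -0.02. Pdk4, a PPAR target that limits glucose oxidation, was at -0.01 ± 0.21 (adjusted p = 1.00, edgeR). Ucp2, a mitochondrial carrier, measured 38.3, 43.5, 39.8 and 44.8 CPM on the standard diet and 51.6, 46.1, 60.8 and 59.1 CPM on the ketogenic diet (0.39 ± 0.18, adjusted p = 0.902, edgeR). Its ketogenic values were higher without overlap, and DESeq2 on the wild type libraries called it. Fabp7, the fatty acid binding protein of radial glia and astrocytes, measured 28.1, 24.6, 23.8 and 31.2 CPM against 17.1, 14.7, 17.7 and 17.3 CPM, and its groups were well apart. It fell in the wild type fit (-0.69 ± 0.10, adjusted p = 0.00858, edgeR) and in 7 of 8 wild type fits without 1 library (not without KC890RL), and was not called with all libraries (-0.69 ± 0.30, adjusted p = 0.885, edgeR).

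The 25 genes of glycolysis and glucose transport stayed between -0.10 and 0.10 with a median of -0.02. The 12 tested mitochondrially encoded genes had a median of 0.08, with mt-Nd1, a subunit of complex I, at 0.12 ± 0.05 and an unadjusted p of 0.0421. Their share of all counts was 2.13 ± 0.110% on the standard and 2.26 ± 0.147% on the ketogenic diet (SD, n = 4), a difference of 0.127 percentage points (two-sided exact permutation p = 0.171, where 70 arrangements allow no p below 0.0286). The difference was 0.0701 without KC842L and 0.189 without KC846L.

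**Figure D4:**
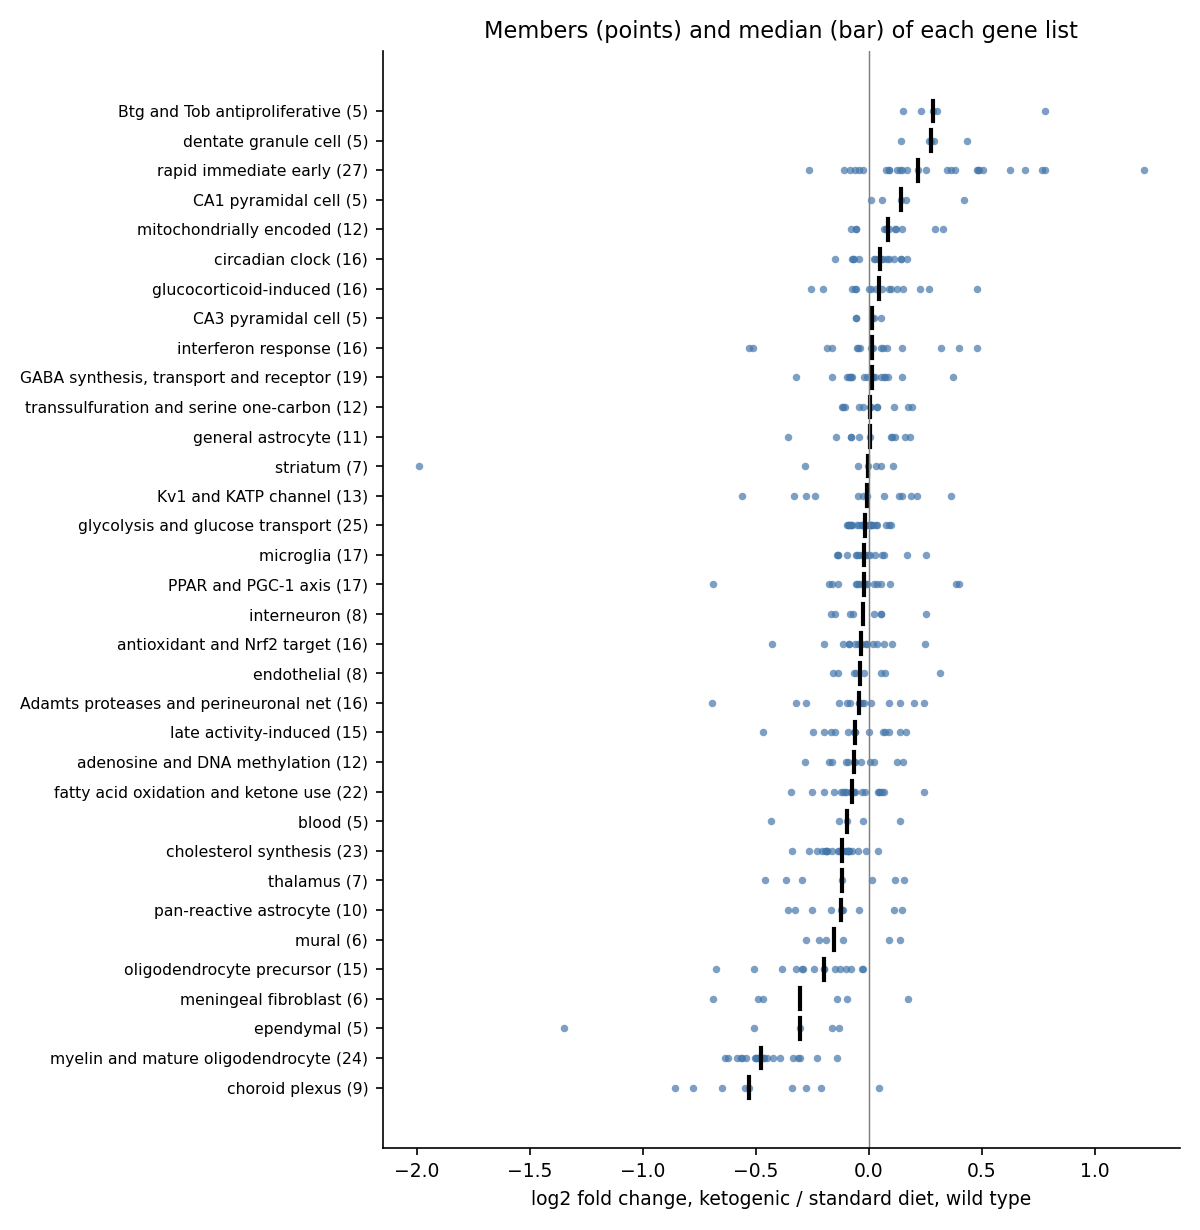
Log2 fold change with the diet in wild type (horizontal axis) for the tested members of 34 gene lists, 1 row per list with the number of tested members in brackets; points are genes and black bars medians. Medians of 21 lists are within 0.1 of 0, and those of the myelin and choroid plexus lists are lowest.

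Across the 34 lists, 21 had a median within 0.1 of 0. Neuronal markers of the dentate gyrus (5 of 5 above 0, median 0.28) and of CA1 (5 of 5, median 0.14) lay above 0. In the dentate list Lct held 74.1 CPM in KC846L against 23.9 to 38.4 CPM elsewhere, and without that library the median was 0.03. The CA1 median ran from 0.0062 without KC894RLL to 0.31 without KC900RLL. Pou3f1, a CA1 transcription factor, measured 41.0, 39.7, 46.5 and 48.9 CPM on the standard diet and 54.9, 51.6, 63.0 and 66.5 CPM on the ketogenic diet (0.42 ± 0.14, adjusted p = 0.781, edgeR). DESeq2 on the wild type libraries called Pou3f1, as did the wild type fit without KC900RLL. The CA3 and interneuron lists had medians of 0.02 and -0.02.

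Of 13 Kv1 and KATP channel genes, Kcna4, an A-type subunit, measured 30.5, 30.4, 27.3 and 33.7 CPM on the standard diet and 43.4, 35.8, 38.3 and 39.3 CPM on the ketogenic diet (0.36 ± 0.10, adjusted p = 0.704, edgeR). The groups did not overlap, and Kcna4 was called by DESeq2 on the wild type libraries and in the wild type fit without KC900RLL. Kcna6 was at -0.24 ± 0.08, Kcna2 at -0.01 ± 0.06 and Kcna1 itself at -0.05 ± 0.15, and the KATP channel genes Kcnj11 and Abcc8 at 0.14 ± 0.10 and 0.15 ± 0.19. The lists of GABA signalling (median 0.01), adenosine and DNA methylation (-0.06), transsulfuration (0.01, with Cbs at 0.04 ± 0.09), circadian clock (0.05, with Dbp at -0.08 ± 0.18) and glucocorticoid-induced genes (0.05, with Fkbp5 at 0.01 ± 0.10) held 0 called genes.

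In the astrocyte and microglia lists edgeR called no gene in wild type, with all libraries or in the wild type fit. Aqp4, the water channel of astrocyte endfeet, was called lower by DESeq2 on the wild type libraries, and Vim, an intermediate filament, by edgeR in the wild type fit without KC900RLL. Gfap, the intermediate filament of reactive astrocytes, measured 390, 353, 369 and 294 CPM on the standard diet and 307, 326, 320 and 337 CPM on the ketogenic diet, with overlap (-0.12 ± 0.64). The 10 tested pan-reactive astrocyte genes had a median of -0.12 (-0.24 without KC900RLL and -0.070 without KC890RL), the 11 general astrocyte genes 0.01 and the 17 microglia genes -0.02. The choroid plexus list had a median of -0.53, but with its summed level at 1105 and 1072 CPM in KC894RLL and KC844RR and at 32.9 to 294 CPM in the rest it was -3.19 without KC844RR and 1.06 without KC894RLL.

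Beyond the called genes, those of smallest p with separated groups are given in each direction. The 10 lower genes were Adamts4, Gab1, Sema6a, Rab7b, Gjb1, Soga3, Gna12, Prr18, Nkx6-2 and Lpar1, with log2 fold changes from -1.16 to -0.23. Gab1, a docking protein of growth factor receptors, measured 36.1, 36.9, 31.9 and 28.7 CPM on the standard diet and 25.1, 24.9, 26.2 and 24.9 CPM on the ketogenic diet (-0.40 ± 0.08, adjusted p = 0.2005, edgeR). Lpar1, a lysophosphatidic acid receptor of oligodendrocytes, was at -0.54 ± 0.13, and Rab7b, a small GTPase of late endosomes, at -1.16 ± 0.25. Apart from the called Btg2 the 10 higher genes were Ddx55, Dalir, Gm42991, Mypopos, Spx, Cebpd, Alox12b, Nemp2 and Ovca2. Ddx55, an RNA helicase, measured 27.1 to 28.2 CPM on the standard diet and 33.5 to 35.1 CPM on the ketogenic diet (0.31 ± 0.06, adjusted p = 0.2005, edgeR). Cebpd, a transcription factor of the acute phase, was at 0.57 ± 0.15 and Spx, a neuropeptide, at 0.87 ± 0.21. Dalir (1.65 ± 0.32), Gm42991 (1.27 ± 0.26) and Mypopos (0.62 ± 0.14) are noncoding, and the last lies antisense to Mypop and Gm42991 within Auts2, so their reads may belong to those genes. DESeq2 called 12 of 17116 genes, or 0.0701%, among them Ddx55, Gab1, Sema6a, Gjb1, Gna12, Prr18, Soga3 and Dalir.

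The knockout libraries give the same diet contrast, with fold changes that share no library with those of wild type. The wild type genes compared here were chosen by p from the fit of all libraries, whose spread comes from both genotypes, so the choice is not independent of the knockout libraries. There the diet called 202 of 17469 genes, or 1.16%, of which 166 were lower (0.95%) and 36 higher (0.206%). Dropping KC872RL lowered it to 28, and dropping KC888LL raised it to 1096. Y-linked expression was present in 2 standard diet and 0 ketogenic diet libraries of the knockout. Of the 10 lower wild type genes named above, 10 were lower and 8 were called lower in the knockout, and of the 10 higher genes 7 were higher and 1, the lipoxygenase Alox12b, was called higher. Without KC872RL 5 of the 10 lower genes were called, without any other single knockout library 8, and without the 4 libraries with Y-linked expression 1, while 10 of 10 stayed below 0 in each of these fits. Of the higher genes 0 or 1 was called in them. Among the 217 genes with an unadjusted p under 0.01 in wild type, 82.9% had the same sign in the knockout, against 57.3% of all tested genes. The share was 91.2% for the 125 lower and 71.7% for the 92 higher genes. Over fits without 1 knockout library these shares ran from 89.3% to 93.4% and from 58.3% to 75.5%. With genes chosen in the wild type fit and signs taken from a fit of the knockout libraries alone, 77% of 383 genes had the same sign, against 57.5% of all, with 81.1% of the 217 lower and 71.7% of the 166 higher genes.

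Set side by side, some lists had medians of the same sign in both genotypes and others did not. The myelin list had a median of -0.82 in the knockout, with 24 of 24 genes below 0 and 16 called, and without the 4 libraries with Y-linked expression -0.80 with 0 called. The number called ran from 4 without KC872RL to 17 without KC888LL or KC935LL, fits in which 28, 638 and 138 of all genes were called lower. In the interaction test 3 of 24 had an unadjusted p under 0.05 (7.48% of all tested genes did) and 0 were called. With 1 knockout library left out that number ran from 0 without KC913RR to 11 without KC935LL, where 6.62% and 8.21% of all genes did. The immediate early list had medians of 0.22 and 0.20, the latter going to -0.09 without KC913RR and 0.53 without KC888LL. In the knockout 22 of its 27 genes were above 0, 0 were called higher and 1 was called lower (0.206% and 0.95% of all were). The cholesterol list, at -0.12 in wild type, had a median of 0.55 in the knockout, with 22 of 23 genes above 0 and 1 called. With 1 knockout library left out that median ran from 0.32 without KC934R to 0.67 without KC935LL, and the number called from 0 (without KC872RL, KC873RR, KC913RR or KC934R) to 4 without KC888LL. For 17 of the 23 genes the difference between the genotypes had an unadjusted p under 0.05, with 0 called. With 1 knockout library left out it was 11 to 20, with 0 called, where 5.09% to 11.5% of all genes had such a p. With all libraries the lowest adjusted p of the list was 0.654 (edgeR). Without the 4 libraries with Y-linked expression the medians were -0.15 and 0.39 and 3 of 23 had an unadjusted p under 0.05, where 3.05% of all genes did. The microglia list stood at -0.02 in wild type and -0.77 in the knockout with 9 of 17 genes at an unadjusted p under 0.05 for the difference (5 to 16 with 1 knockout library left out, the lowest without KC872RL or KC873RR, where 5.09% and 5.2% of all genes did, and the highest without KC888LL, where 11.5% did), and without those 4 libraries it was at -0.01 and -0.07 with 1 of 17. The blood list had medians of -0.09 in wild type and -2.02 in the knockout, where 4 of 5 genes were called lower (0.95% of all were). For 4 of 5 the difference had an unadjusted p under 0.05 (7.48% of all). The choroid plexus list stood at -0.53 and -2.72 and the thalamus list at -0.12 and -0.47, with 7 of 7 thalamic genes below 0 in the knockout. The part of such tissue in the knockout values was not tested. No gene passed the adjusted threshold for a difference of the diet effect between the genotypes (edgeR, 0 of 17469 or 0%, with 1306 at an unadjusted p under 0.05), while DESeq2 called 7.

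**Figure D5:**
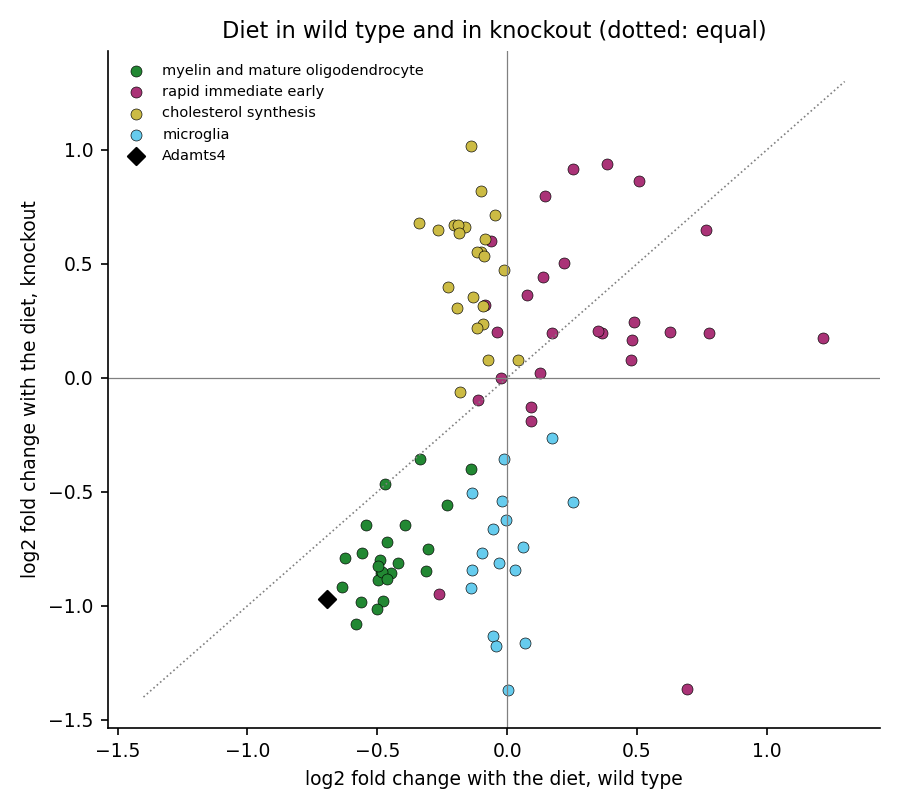
Log2 fold change with the diet in the knockout (vertical axis) against that in wild type (horizontal axis) for 4 gene lists, 1 point per gene, with Adamts4 as a diamond and equal change as a dotted line. Myelin genes lie below 0 in both genotypes, cholesterol genes mostly slightly below 0 in wild type and above 0 in the knockout, and microglia genes near 0 in wild type and below 0 in the knockout.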

How the data were processed

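RNA of the hippocampus was measured in 16 mice, and this comparison uses the 8 wild type libraries. The authors deposited 1 table of raw counts for 49315 mouse Ensembl genes, with 1 column per animal. The submitters' processing notes name mm10 and DESeq2 with no role, and the aligner, counting program, annotation and use of strand are not given in the sources used here. Columns carry an animal tag, genotype and diet, so each was assigned to its group only. P-values set a difference against the spread between animals, which the fit of all 16 libraries takes from both genotypes. They cannot separate the diet from depth or from whatever the tags record.

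Counts were filtered with filterByExpr, scaled by TMM factors and fitted in edgeR 4.0.16 (R 4.3.3) with 1 coefficient per group over 16 libraries, robust dispersion and 12 residual degrees of freedom. CPM used effective library sizes, and log2 CPM a prior count of 2. SE values come from the F statistic. The fit was tested on simulated data. DESeq2 1.42.0, limma 3.58.1 (voom), the wild type libraries alone, other scalings and filters, a Y-linked covariate and fits that drop 1 library at a time were alternatives. Positions are those of GENCODE M21 for 48970 identifiers. Members and lists were chosen with earlier results of these data known. Genes were named if called, if among the 10 of smallest p per direction with separated groups and at least 1 CPM, if of smallest p in a list, or from a short fixed list, and some of these genes are not reported here. Junb, Cnp, Tob1 and other list members outside that rule, and the genes called only in the wild type fit, were chosen after their values were seen. The fits without doubted libraries, the thinned fit, DESeq2 on the wild type libraries, the wild type fits without 1 library or with the covariate, and the knockout fits without 1 library were also added after seeing the data.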

Additional observations from a re-analysis of the deposited data

Results flagged for a closer look

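In groups of 4, a library was singled out where its gap to the nearest other library exceeded Dixon's 95% critical value as a share of the group's range. Of 286 sets of 4 values examined, 19 met this, and chance gives about 1 in 20. On the ketogenic diet KC844RR was highest for Otx2 (4.596 CPM against 0.182 to 0.270), Sostdc1 (18.5 against 1.41 to 1.73), Igf2 (58.4 against 21.4 to 27.1), Pdgfrb (24.5 against 20.5 to 21.1), Gab1 (26.2 against 24.9 to 25.1) and the choroid plexus list (4.07 mean log2 CPM against -0.10 to 0.45). KC846L, the library with Y-linked expression and the deepest one, was highest for Lct (74.1 CPM), Cbs (34.5) and Gm42991 (4.10, against 2.12 to 2.43), and lowest for Adra2a (10.6, against 13.4 to 13.6) and Olig2 (18.7). KC843RL was highest for Sox10 (37.2 CPM) and lowest for the CA1 list (6.03 mean log2 CPM, against 6.31 to 6.35). On the standard diet KC894RLL was highest for Kcna1 (129.7 CPM, against 115.7 to 118.1) and Spx (2.36), and lowest for Kcna6 (47.2) and Ly6c1 (14.0). KC897RR was highest for Fibcd1 (159.8 CPM, against 121.9 to 124.1), and KC890RL, with Y-linked expression, for the mural list (3.80 mean log2 CPM, against 3.38 to 3.42).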

How the results depend on the processing

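No paired analysis was possible because the columns carry animal tags and no replicate numbers. The 2 calls became 1 with upper-quartile factors (Btg2), with a Y-linked covariate (Btg2) or after thinning to equal totals (Btg2; Adamts4 was then at -0.69, -0.69 and -0.72, adjusted p = 0.0517, 0.0656 and 0.0535, edgeR), 0 in edgeR with no robust estimation, without KC890RL and KC846L, or without KC894RLL and KC844RR (980, 570 and 790 genes at an unadjusted p under 0.05), 12 with DESeq2, 11 in the wild type fit (also with the covariate), 4 there without KC890RL and KC846L (Arc, Npas4, Btg2 and Gpr17), and 77 with DESeq2 on the wild type libraries. Leaving out 1 wild type library gave 0 to 3 calls in the fit of both genotypes. In the wild type fit it gave 2 to 59, the lowest without KC890RL (Arc and Npas4) and the highest without KC900RLL. DESeq2 gave 7 calls for the difference between genotypes and 677 in the knockout, where edgeR gave 202, and 28 to 1096 with 1 library left out. Which property of these settings moved the counts was not tested. The wild type medians of the myelin and immediate early lists kept their direction throughout, at -0.60 to -0.33 and 0.16 to 0.27. The mitochondrial share was rerun only on counts in tested genes and with 1 wild type library left out, and kept its direction there.

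Among named genes, 11 changed sign somewhere, none of them called. Without KC890RL and KC846L, Slc16a1 was at 0.060, Fkbp5 at -0.014, Pdk4 at 0.19, Nptx1 at -0.00053 and Cp at 0.22, and Fkbp5 was at -0.015 after thinning. Without KC894RLL and KC844RR, Kcna1 was at 0.030 and Cpne4 at 0.12. With 1 library left out, in either fit, values ranged from -0.018 to 0.085 for Cbs, -0.25 to 0.086 for Cp, -0.17 to 0.048 for Cpne4, -0.053 to 0.057 for Fkbp5, -0.45 to 0.036 for Hbb-bt, -3.27 to 0.20 for Otx2, -0.10 to 0.094 for Pdk4, -0.054 to 0.052 for Slc16a1 and -2.60 to 0.55 for Sostdc1. With 4 animals per diet, genes of at least 10 CPM had a median SE of 0.08, which limits what single genes can show.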
